A study of Mus musculus with 12 samples.

Results

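The genes described here are the amino acid transporters of mouse kidney cortex, the outer kidney layer that holds the glomeruli and most of the proximal tubule. They were taken as every gene whose symbol begins with Slc1a, Slc3a, Slc6a, Slc7a, Slc36a, Slc38a or Slc43a followed by a digit, leaving out Slc38a3. The rule uses names only and no measured value. It found 40 genes among the 11614 in the deposited files. Of these, Slc7a6os is not a carrier: it lies beside Slc7a6 on the opposite strand and shares only the start of its symbol.

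The 12 RNA-seq libraries come from kidney cortex of C57BL/6J mice and fall into 4 groups of 3. For 12 or 24 weeks control mice received corn oil beside a normal diet, and mice with non-alcoholic steatohepatitis (NASH), a fatty and inflamed liver, received WD (a Western diet) and the liver toxin CCl4. All 4 groups share the strain and no gene was altered in any of them. Diet, CCl4 and the liver disease were given together, so they cannot be told apart in any comparison below. The labels count 6 mice in each 12-week group, and 8 controls and 10 NASH mice in the 24-week groups, the sexes in equal number, but give no age at the start. Which animals, or pools of animals, became the 3 libraries is not in the labels, so p-values measure only the spread among libraries, which may be technical.

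Amino acids that pass the glomerular filter are taken back almost wholly in the proximal tubule. Sodium-coupled carriers and exchangers in the brush border bring them into the cell, and exchangers and uniporters in the basolateral membrane pass them on to the blood. Several carriers work as pairs: the heavy chain Slc3a1 carries the light chains Slc7a9 and Slc7a13 to the luminal side, and the heavy chain Slc3a2 carries Slc7a7 and Slc7a8 to the basolateral side. Other members of these families move neurotransmitters, taurine or creatine, or work in lysosomes.

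Of the luminal carriers of the proximal tubule that were listed, 9 of 9 were measured. Of the basolateral and heteromeric exchangers 7 of 10 were measured, of the cationic and other Slc7 carriers 5 of 7, and of the carriers of neutral amino acids 7 of 11. Of the glutamate carriers of glia and neurons 2 of 4 were measured, of the lysosomal carriers 3 of 4, and of the carriers of osmolytes, creatine, glycine and neurotransmitters 6 of 15. Slc7a5, Slc7a10, Slc7a11 and Slc6a12 are among those not analysed here. The values are log2 of reads scaled by 1 factor per library, and every gene in the files reaches 100 scaled reads in at least 1 library, so the 40 genes had passed a filter by the authors. Of them 25 reach that level in all 12 libraries and 15 in some only. Slc1a3 and Slc36a2 reach it in 1 library, control replicate 1 at 24 weeks, Slc7a6 only in control libraries, and Slc7a13 only in replicates 2 and 3. In mean level, 18 of the 40 lay above the median gene, which was at log2 8.62.

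Depth, estimated from the smallest steps between values, was about 7.17e+06 to 1.41e+07 reads per library. The lowest values were those of NASH replicates 2 and 3 at 12 weeks and NASH replicate 3 at 24 weeks. Replicate 1 of every group stood apart from replicates 2 and 3. Xist, the RNA of the inactive X chromosome, was at log2 10.6 to 11.5 in replicate 1 and at 2.97 to 4.86 in the others, and the Y-linked Ddx3y was at 2.48 to 4.25 against 8.95 to 9.62. Kap, an androgen-driven kidney gene, was at 12.4 to 16.9 against 18.2 to 19.2. No label states the sex of the animals in a given library. The summed level of the 8 proximal tubule markers, all measured, ran from log2 17.4 to 17.8 over the 12 libraries.

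Per kilobase of transcript, the scale on which different genes can be set side by side, 7 of the 9 luminal carriers and 3 of the 7 measured basolateral and heteromeric exchangers made up the 10 members of highest median in the 6 control libraries. The other 2 luminal carriers lay far lower, Slc6a20a at rank 23 and Slc36a2 at rank 38 of 40. Slc7a13, a luminal light chain for cystine and acidic amino acids, had the highest control median, at log2 12.22 per kilobase, but its range was 1.35 to 12.72. Slc3a1, the luminal heavy chain, followed at 11.62 with a range of only 11.25 to 11.76.

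Below them, Slc6a19, the main sodium-coupled carrier of neutral amino acids, had a control median of 10.52 per kilobase. Next came Slc1a1, the epithelial glutamate carrier, at 10.48 and Slc6a18, a carrier of glycine and alanine, at 10.47. The heavy chain Slc3a2 was at 10.32, Slc6a20b, a paralog of Slc6a20a, at 10.20 and the cystine light chain Slc7a9 at 10.20. Slc7a7, which exports cationic amino acids, was at 10.17 and Slc7a8, an exchanger of neutral amino acids, at 10.00. From Slc6a19 to Slc7a8 each gene's control range overlapped that of the next, so the order among these 8 carriers is not settled by these libraries.

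Slc6a6, the taurine carrier, and Slc6a8, the creatine carrier, had control medians of 10.00 and 9.97 per kilobase. Slc6a13, a carrier of GABA, betaine and taurine, was at 9.39, Slc38a10, of the sodium-coupled neutral amino acid family, at 9.35, and Slc43a2, a basolateral uniporter of large neutral amino acids, at 9.08. The lysosomal carrier Slc36a1 was at 7.98. The glial glutamate carrier Slc1a3 had the lowest control median, 3.27, and its range of 2.75 to 6.04 overlapped that of Slc38a1, at 3.28. The paralogs Slc6a20a and Slc6a20b lie next to each other on chromosome 9 and are close copies, so the split of reads between them (6.49 and 10.20 per kilobase) is uncertain. Slc3a1 overlaps Prepl and Slc7a7 overlaps Oxa1l on the opposite strand, and the files do not say whether strand was used in counting.

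**Figure D1:**
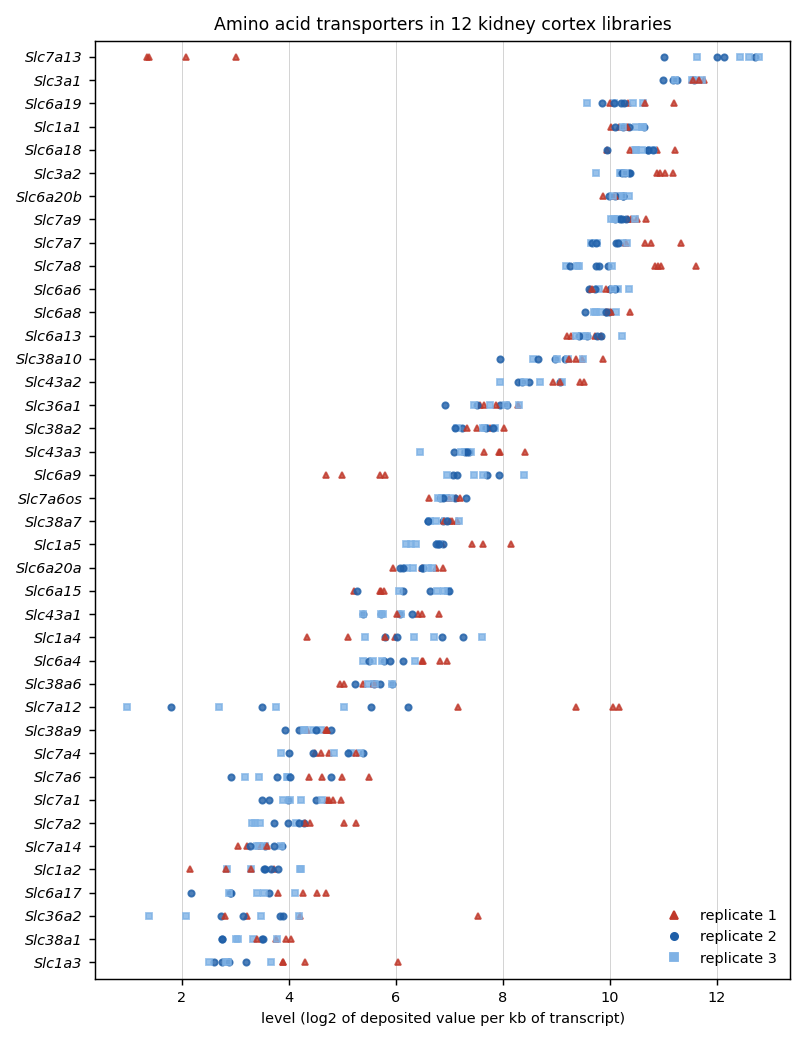
Level of each of the 40 genes in the 12 libraries, as log2 of the deposited value per kilobase of transcript (x axis), ordered by the control median, with replicate 1 as triangles, replicate 2 as circles and replicate 3 as squares. Most genes form a tight row, while Slc7a13 runs from 1.35 to above 12 and Slc7a12 is spread almost as widely, with replicate 1 at the far end of both.

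RefSeq (GRCm38.p6) gave a promoter window, 250 bases before to 50 after a gene's start, for 28 of the 40 genes, and for 25 of them that start lay within 100 bases of the start in the files. The windows were searched on both strands for the E-box CACGTG, the site of clock and MYC-family factors, for the D-box TTATGTAA, and for the C/EBP-ATF element TGATGCAA. An E-box was found in 3 of the 25 windows, a D-box in 0 and a C/EBP-ATF element in 2. Of all 32817 RefSeq windows, 7.15% hold an E-box, 0.935% a D-box and 0.896% a C/EBP-ATF element. A match describes the letters only.

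The 4 genes called at 12 weeks with the replicate block and Slc6a9, whose level parted replicate 1 from the others, are shown by the 150 bases before their start. They lie at chr6:121300138-121300287 on the + strand (Slc6a13), chr11:75531544-75531693 on the + strand (Slc43a2), chr11:120151352-120151501 on the - strand (Slc38a10), chr14:54781887-54782036 on the - strand (Slc7a8) and chr4:117835108-117835257 on the + strand (Slc6a9). None of the 3 motifs is in these stretches, and all letters are lower case. The stretches hold between 58.7% and 63.3% G and C.
Slc6a13: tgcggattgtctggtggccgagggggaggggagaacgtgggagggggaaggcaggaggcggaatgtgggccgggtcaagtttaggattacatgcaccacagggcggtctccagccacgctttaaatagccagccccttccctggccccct
Slc43a2: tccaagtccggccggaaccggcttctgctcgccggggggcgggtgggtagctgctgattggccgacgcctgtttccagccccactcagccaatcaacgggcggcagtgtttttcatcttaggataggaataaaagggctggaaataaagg
Slc38a10: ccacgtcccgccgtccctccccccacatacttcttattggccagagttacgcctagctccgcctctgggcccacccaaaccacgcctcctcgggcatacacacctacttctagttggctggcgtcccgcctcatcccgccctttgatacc
Slc7a8: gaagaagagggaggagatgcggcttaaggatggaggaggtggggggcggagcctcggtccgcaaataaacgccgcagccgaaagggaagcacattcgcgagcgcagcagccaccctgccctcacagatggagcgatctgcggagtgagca
Slc6a9: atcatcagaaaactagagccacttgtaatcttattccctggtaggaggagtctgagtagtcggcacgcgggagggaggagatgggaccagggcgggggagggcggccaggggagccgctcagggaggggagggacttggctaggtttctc

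The next 2 stretches run from 50 bases before the start to 10 after it. They are shown because a motif begins at base -4 (Slc1a4) or -3 (Slc36a1) from the start. They are chr11:20332704-20332763 on the - strand for Slc1a4, an exchanger of alanine, serine and cysteine, and chr11:55204290-55204349 on the + strand for the lysosomal Slc36a1. Capitals mark the C/EBP-ATF element of Slc1a4, which reads as the reverse complement of TGATGCAA on the gene's strand, and the pair of E-boxes of Slc36a1. Slc38a7 also has an E-box near its start, at base -34, and is not shown.
Slc1a4: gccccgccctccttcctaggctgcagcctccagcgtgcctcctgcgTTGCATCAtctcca
Slc36a1: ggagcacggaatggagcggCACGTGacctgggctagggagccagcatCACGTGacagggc

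Replicate 1 differed from replicates 2 and 3 in some transporters by more than any comparison of groups. Over all 12 libraries, replicate 1 lay wholly above replicates 2 and 3 in 8 of the 40 genes (against 15% of all genes) and wholly below in 2 (against 4.21%). No test is given, since the split was seen in the data. Of these 10 genes, Slc7a13 and Slc1a3 are in the files only through libraries on the high side of the split.

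Slc7a13 was at log2 4.10, 2.44, 2.48 and 3.17 in replicate 1 of the controls at 12 and 24 weeks and of NASH at 12 and 24 weeks. In the other 8 libraries it was at 12.1 to 13.9. By the steps of the values, replicate 1 held between 4 and 16 reads of Slc7a13 and the other libraries 3551 or more. Its heavy chain Slc3a1 showed no such split, with replicate 1 at 12.74 to 12.97 and the others at 12.19 to 12.92.

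Slc7a12, a light chain of the same family, ran the other way. It was at 7.96, 10.15, 10.96 and 10.85 in replicate 1 and at 1.76 to 7.01 in the others, from 1792 reads in NASH replicate 1 at 12 weeks down to 2 in NASH replicate 3 at 24 weeks. Slc6a9, the glycine carrier GlyT1, was at 6.41 to 7.50 in replicate 1 and at 8.66 to 10.1 in the others, a mean difference of -2.24.

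The remaining 7 genes of this kind were higher in replicate 1 by smaller amounts. The mean difference was 1.62 for the glutamate carrier Slc1a3, 1.48 for Slc7a8, 0.94 for the cationic carrier Slc7a2, 0.90 for the serotonin carrier Slc6a4, 0.80 for Slc43a3, which moves purine bases, 0.80 for Slc3a2 and 0.77 for the cationic carrier Slc7a1. Slc7a8 and its heavy chain Slc3a2 thus both lay higher in replicate 1, at 12.85 to 13.62 against 11.20 to 12.06 and at 12.37 to 12.66 against 11.24 to 11.86.

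**Figure D2:**
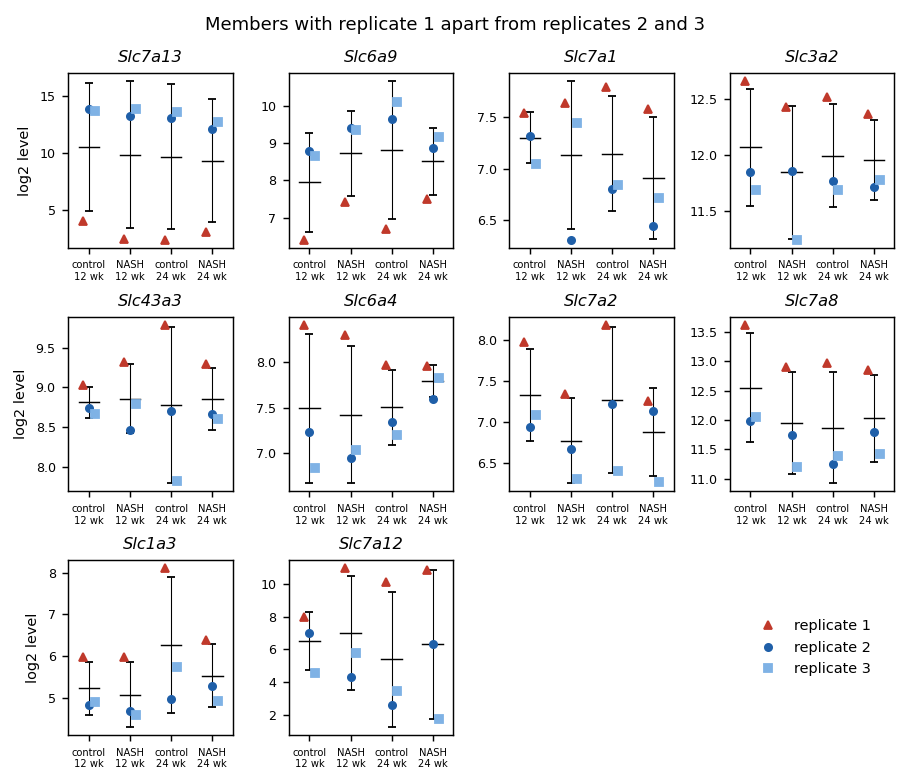
Log2 level (y axis of each panel, not starting at 0) of the 10 genes whose replicate 1 lay wholly above or below replicates 2 and 3, by group (x axis), with each library as a point and the group mean and SD (n = 3) as bars. The triangles of replicate 1 lie at 2.44 to 4.10 for Slc7a13, far under the other libraries, and above all others for Slc7a12.

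At 12 weeks the question is which carriers differ between NASH and control cortex. With limma, adjusted by Benjamini-Hochberg over 11614 genes and called at an adjusted p under 0.05, none of the 40 genes passed in the fit of 4 group means (0 of 40, against 0.0517% of all genes). At an unadjusted p under 0.05 there were 2. With the replicate number added as a block, 4 of 40 passed, 1 higher and 3 lower, against 12.9% of all genes (3.01% higher and 9.85% lower). The share of the 40 is close to the background. The median change of the 40 was -0.18 and that of all genes -0.08, with 14 genes above 0 and 26 below.

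Among the basolateral and heteromeric exchangers, 2 of the 7 measured fell with the block, which called 9.85% of all genes lower. A change below 0 was seen in 6 of 7, and in 26 of all 40 genes. Slc7a6, 1 of the 6, is in the files only through control libraries, so nothing is read from its fall. Slc43a2 was at log2 12.31, 11.85 and 11.90 in the control libraries 1 to 3 and at 11.73, 11.15 and 10.73 in the NASH libraries. Every NASH library lay under every control library. The change was -0.82, or 1.77-fold lower (SE 0.32, adjusted p = 0.299 without the block; SE 0.15, adjusted p = 0.0114 with it). In replicates 2 and 3 alone Slc43a2 also passed (-0.94, SE 0.16, adjusted p = 0.0175), the only member that did, against 3.31% of all genes (2.50% lower). Without control replicate 3 at 12 weeks it did not pass with the block (adjusted p = 0.0588), and with a trend in GC content and length removed beside the block the change was -0.55 (adjusted p = 0.0574).

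Slc7a8 was at 13.62, 11.97 and 12.06 in the controls and at 12.90, 11.75 and 11.20 in NASH. The groups overlapped, replicate 1 being high in both, while each NASH library lay under the control library of the same number. The labels do not say that libraries of the same number belong together, so such numbered pairs are a description only. The change was -0.60 (SE 0.62, adjusted p = 0.678 without the block; SE 0.14, adjusted p = 0.0263 with it). It did not pass with the block without replicate 1 or 3 of either 12-week group (adjusted p up to 0.103), or with GC content and length removed (-0.43, adjusted p = 0.156). The others of this class did not pass: Slc7a7 changed by -0.41, Slc43a1 by -0.34, Slc7a6 by -0.48, Slc3a2 by -0.22 and Slc43a3 by 0.05.

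Of the 7 carriers of neutral amino acids, 1 fell with the block, against 9.85% of all genes. Slc38a10 was at 10.22, 9.91 and 9.97 in the controls and at 10.11, 8.70 and 9.31 in NASH. NASH replicate 2, the library of lowest depth, was the lowest, and NASH replicate 1 lay within the control range. The change was -0.66 (SE 0.33, adjusted p = 0.378 without the block; SE 0.17, adjusted p = 0.0325 with it), and -0.80 (adjusted p = 0.0162) with GC content and length removed. It did not pass without replicate 2 or 3 of either 12-week group (adjusted p up to 0.118).

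In the same class Slc1a4 had the largest positive change of the 40 genes at 12 weeks, 0.98, or 1.98-fold, and did not pass (SE 0.63, adjusted p = 0.481; 0.136 with the block). It was at 6.31, 8.84 and 8.68 in the controls and at 7.96, 9.23 and 9.59 in NASH, higher in each of the 3 numbered pairs. The glutamine carriers Slc1a5 (0.39) and Slc38a2 (0.05) did not pass either.

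Among the 6 carriers of osmolytes, creatine, glycine and neurotransmitters, 1 rose with the block, against 3.01% of all genes. Slc6a13 was at 10.30, 10.68 and 10.57 in the controls and at 10.83, 10.86 and 11.34 in NASH. The 3 NASH libraries lay above the 3 controls. The change was 0.49, or 1.41-fold higher (SE 0.16, adjusted p = 0.270 without the block; SE 0.14, adjusted p = 0.0468 with it). It passed in only 2 of the 12 fits with the block that left out 1 library, those without NASH replicate 1 or 3 at 24 weeks (adjusted p in the others up to 0.143), and not with GC content and length removed (0.45, adjusted p = 0.0792).

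Slc6a9 was higher in all 3 numbered pairs, by 1.01, 0.64 and 0.69, and did not pass (0.78, adjusted p = 0.730; 0.0882 with the block). Slc6a6, the taurine carrier, was at 12.62, 12.62 and 12.78 in the controls and at 12.26, 12.24 and 12.43 in NASH. Its groups did not overlap and its change of -0.36 did not pass (adjusted p = 0.357; 0.0851 with the block). Slc6a8 changed by -0.22.

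None of the 9 luminal carriers passed with limma at 12 weeks with or without the block (2 at an unadjusted p under 0.05 with it, 0 without). Their median change was -0.09, against -0.08 for all genes. The change was -0.26 for Slc3a1 (adjusted p = 0.498; 0.104 with the block), -0.45 for Slc6a19 (0.446 and 0.161), -0.22 for Slc1a1, -0.07 for Slc7a9, -0.09 for Slc6a20b, 0.09 for Slc6a20a and 0.17 for Slc6a18. Slc3a1 was at 12.97, 12.77 and 12.92 in the controls and at 12.74, 12.38 and 12.77 in NASH, with the lowest control just above the highest NASH library. Slc7a13 changed by -0.68 with an SE of 4.12 without the block and of 0.34 with it.

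The 3 lysosomal carriers had changes below 0 at 12 weeks and did not pass (1 at an unadjusted p under 0.05 with the block, Slc38a7): Slc36a1 -0.34, Slc38a9, the arginine sensor of the mTORC1 pathway, -0.37, and Slc38a7, a glutamine carrier, -0.25. Of all 40 genes, 2 had the NASH libraries wholly above the controls at 12 weeks (Slc6a13 and Slc7a6os, against 8.14% of all genes) and 5 wholly below (Slc36a1, Slc38a9, Slc3a1, Slc43a2 and Slc6a6, against 14.4%). None of the 5 cationic and other Slc7 carriers passed (1 at an unadjusted p under 0.05 with the block, Slc7a2): Slc7a2 changed by -0.56, Slc7a14 by -0.20, Slc7a1 by -0.17, Slc7a4 by 0.01 and Slc7a12 by 0.52. The glial carriers Slc1a2 (-0.67) and Slc1a3 (-0.16) did not pass either.

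**Figure D3:**
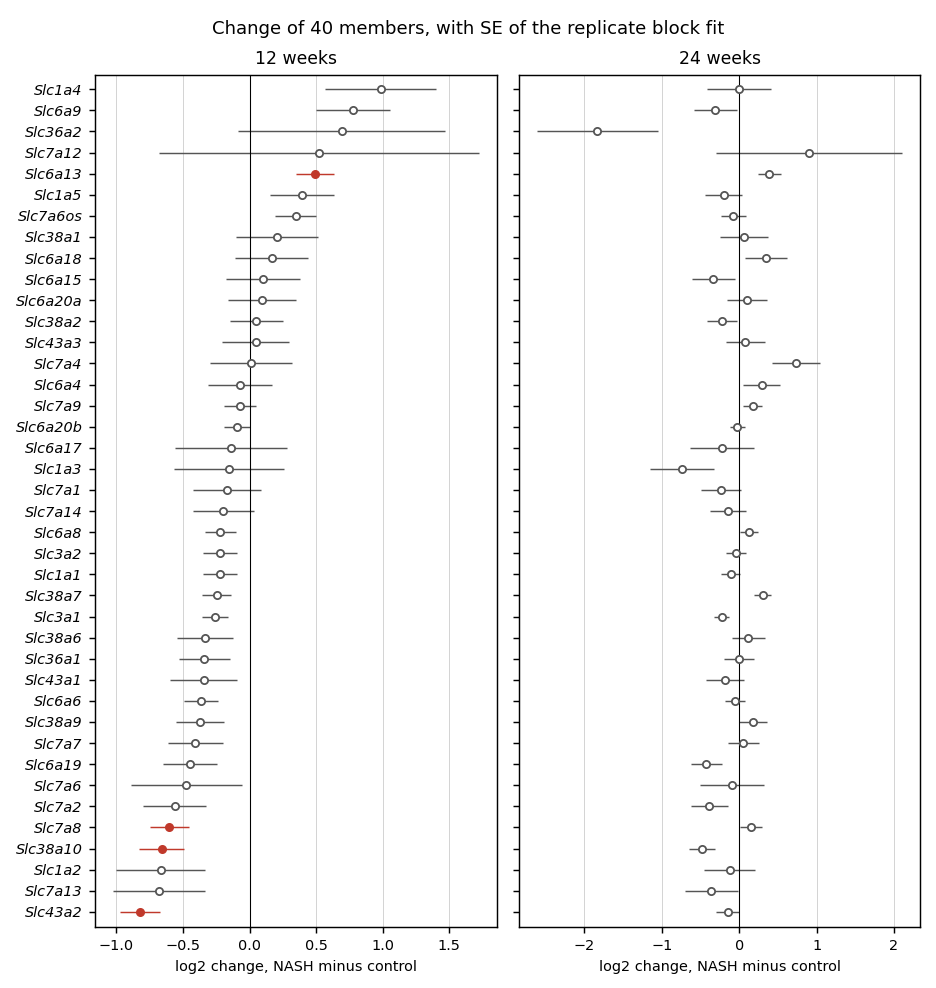
Log2 change, NASH minus control (x axis), of the 40 genes at 12 weeks (left) and 24 weeks (right), with the SE of the fit with the replicate block (n = 3 libraries a group); filled red points have an adjusted p under 0.05 with the block. At 12 weeks Slc6a13 (0.49), Slc7a8 (-0.60), Slc38a10 (-0.66) and Slc43a2 (-0.82) are filled, and at 24 weeks none is.

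Markers of several cell types also differed at 12 weeks. The summed level of the 6 markers of the straight part of the proximal tubule, all measured, was 15.1 to 16.7 in the controls and 16.2 to 17.2 in NASH, all 6 with a change above 0 (median 1.51) and Slc5a10 called with the block. That of the 6 erythroid markers, all measured, was 10.5 to 10.9 in the controls and 10.9 to 12.9 in NASH, all 6 with a change above 0 and none called by limma (5 at an unadjusted p under 0.05 with the block). Of these 6, Hbb-bt and Hbb-b2 hold the same values in every library, so 1 measurement enters the sum and the counts 2 times. Of the 6 markers of the loop of Henle and distal tubule, all measured, 3 fell with the block: Calb1 by 1.16 (adjusted p = 0.0255), Slc12a3 by 0.66 (0.0236) and Trpv5 by 0.89 (0.0442). The other 3, Umod, Slc12a1 and Pvalb, had a change above 0 and were not called. The summed level of that list was 14.8 to 15.8 in the controls and 14.7 to 16.1 in NASH. Of the 6 collecting duct markers only 2 had a change above 0 (median -0.26). Aqp2, 1 of these 2, rose with the block by 1.46 (adjusted p = 0.0270), the sum being 12.5 to 13.0 against 12.8 to 13.4. All 5 adipocyte markers had a change above 0 (median 1.83) and none was called (0 at an unadjusted p under 0.05 with the block). None of the proximal tubule, podocyte, endothelial and macrophage markers was called (2, 0, 1 and 0 at an unadjusted p under 0.05 with the block). NASH replicates 2 and 3 were also the libraries with the fewest reads. Whether any of these plays a part in the changes of the transporters was not tested. In bulk cortex, fewer cells of a type and less RNA per cell cannot be told apart.

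At 24 weeks no member passed with limma in either fit (0 of 40, against 0% of all genes without the block and 0.00861% with it). At an unadjusted p under 0.05 there were 2 without the block and 6 with it. In replicates 2 and 3 alone none passed (0 of 40, against 0.103% of all genes; 6 at an unadjusted p under 0.05). The median change was -0.06, against 0.01 for all genes. Slc6a13 again had the smallest p without the block. It was at 10.37, 10.53 and 10.46 in the controls and at 10.94, 10.93 and 10.68 in NASH, all 3 above the controls, with a change of 0.39 (SE 0.16, adjusted p = 0.999; 0.440 with the block). It was the 1 member whose NASH libraries lay wholly above the controls, against 4.56% of all genes.

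Slc43a2 was at 12.23, 11.08 and 11.48 in the 24-week controls and at 11.86, 11.29 and 11.19 in NASH, a change of -0.15 (block SE 0.15) with overlapping groups. Slc7a8, at 12.97, 11.26 and 11.39 against 12.85, 11.80 and 11.43, changed by 0.16 (block SE 0.14). Slc38a10 was at 10.62, 9.73 and 10.24 against 9.99, 9.39 and 9.76, lower in each numbered pair, with a change of -0.48 (adjusted p = 0.999; 0.440 with the block). Of the other members Slc7a4, an orphan of the cationic family, changed by 0.73 and Slc38a7 by 0.30, neither called.

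**Figure D4:**
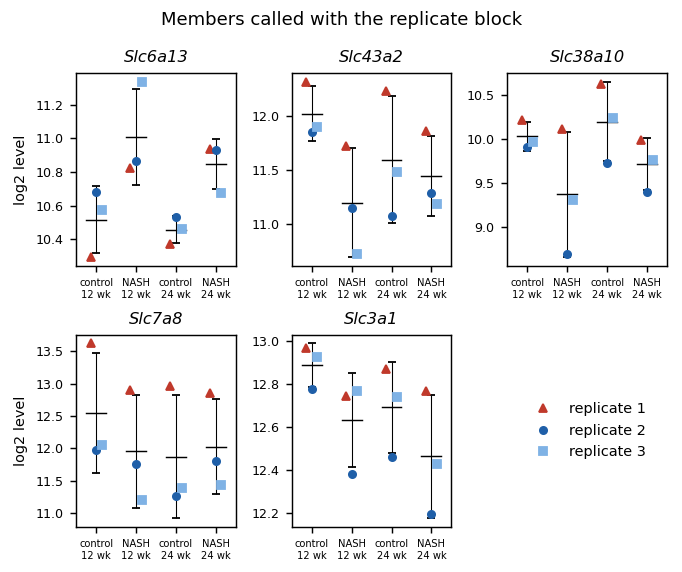
Log2 level (y axis, not starting at 0) of the 5 genes called with the replicate block at 12 weeks or over both times, by group (x axis), with each library as a point and the group mean and SD (n = 3) as bars. Slc6a13 is higher in all NASH libraries than in the controls at both times, and the NASH means of Slc43a2 and Slc7a8 differ from the controls by -0.82 and -0.60 at 12 weeks and by -0.15 and 0.16 at 24.

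The NASH effects at the 2 times were compared by their difference, 24 minus 12 weeks. No member passed with limma in either fit (0 of 40, against 0% of all genes without the block and 0.00861% with it), with 1 at an unadjusted p under 0.05 without the block and 5 with it. The difference was 0.67 for Slc43a2 (adjusted p = 0.261 with the block), 0.76 for Slc7a8 (0.211) and 0.55 for Slc38a7 (0.224). So the larger changes of Slc43a2 and Slc7a8 at 12 weeks were not shown to differ from those at 24 weeks. In replicates 2 and 3 alone 1 member passed, Slc6a9 (-1.52, SE 0.25, adjusted p = 0.0289), against 0.629% of all genes.

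Averaged over both times, no member passed without the block (0 of 40, against 0% of all genes; 3 at an unadjusted p under 0.05). With the block 4 passed, 1 higher and 3 lower, against 10.4% of all genes (3.03% higher and 7.36% lower). Slc6a13 rose by 0.44 (SE 0.10, adjusted p = 0.0274), higher in 6 of 6 numbered pairs. Slc38a10 fell by 0.57 (SE 0.12, adjusted p = 0.0208) and Slc3a1 by 0.24 (SE 0.07, adjusted p = 0.0493), each lower in 6 of 6 pairs. Slc43a2 fell by 0.49 (SE 0.11, adjusted p = 0.0235), lower in 5 of 6 pairs. The labels do not link libraries of the same number, so these pair counts describe the values and give no further support. Slc6a19 changed by -0.44 and did not pass (adjusted p = 0.0757). In replicates 2 and 3 alone none passed (0 of 40, against 1.06% of all genes; 6 at an unadjusted p under 0.05). Markers of cell types were called in this average with the block too: 5 of the 6 erythroid ones higher, against 3.03% of all genes. Hbb-bt and Hbb-b2, which hold the same values, are both among these 5. At 24 weeks none of the 6 was called (6 at an unadjusted p under 0.05 with the block). Slc5a10 and Aqp2 were called higher in the average, and Calb1 and Trpv5 lower. The part of these in the transporter changes was not tested. The average shares its libraries with the comparisons at each time and is not further evidence for them.

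The average changes of the transporters rest on small margins. Of the 12 fits with the block that left out 1 library, Slc38a10 passed in 8, Slc6a13 and Slc43a2 in 6 each and Slc3a1 in 2, with adjusted p up to 0.0607, 0.0730, 0.0685 and 0.127. With GC content and length removed beside the block, Slc6a13 (0.40) and Slc38a10 (-0.69) passed, and Slc43a2 (-0.31) and Slc3a1 (-0.20) did not.

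Between 12 and 24 weeks in control mice no member passed in either fit (0 of 40, against 0% of all genes without the block and 0.172% with it). At an unadjusted p under 0.05 there were 4 without the block and 11 with it. These counts take in Slc36a2, whose rise the authors' filter favoured, so nothing is read from that rise. The 24-week controls lay wholly above the 12-week ones in 2 members, Slc36a2 and Slc7a6os (against 4.72% of all genes; Slc36a2 is in the files only through 1 of these libraries), and wholly below in 2, Slc36a1 and Slc7a4 (against 7.38%). Slc36a1, the lysosomal and luminal proton-coupled carrier, was at 10.68, 10.48 and 10.70 at 12 weeks and at 10.27, 9.32 and 10.16 at 24 weeks, with no overlap. Its change of -0.70 did not pass (adjusted p = 0.490; 0.0978 with the block). Slc7a4 was at 6.29, 7.07 and 6.85 and then at 6.17, 5.70 and 5.55, also with no overlap (-0.93, adjusted p = 0.490). Slc7a8 was lower at 24 weeks in each pair, by 0.66, 0.72 and 0.67 (-0.68, adjusted p = 0.804; 0.0743 with the block). The controls at 24 weeks were thus the lower of the control groups for Slc7a8 and Slc43a2 (-0.43, not called), the 2 carriers of their class called with the block at 12 weeks. These comparisons share control libraries, so they are not independent of each other.

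In replicates 2 and 3 alone, 4 members passed between the control times, 1 higher and 3 lower, against 6.50% of all genes (2.33% higher and 4.17% lower). Slc6a9 rose by 1.16 (adjusted p = 0.00539), from 8.78 and 8.66 to 9.64 and 10.11. Slc7a4 fell by 1.34 (0.0183), Slc36a1 by 0.85 (0.0486) and Slc7a8 by 0.69 (0.0482).

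Between 12 and 24 weeks in NASH mice no member passed in either fit (0 of 40, against 0% of all genes without the block and 0.0258% with it; 1 and 4 at an unadjusted p under 0.05). The 24-week libraries lay wholly above the 12-week ones in 1 member, Slc38a7 (against 4.06% of all genes), and wholly below in 1, Slc36a1 (against 4.37%). Slc38a7 was at 8.60, 8.31 and 8.34 and then at 8.85, 8.67 and 8.90, with no overlap (0.39, not called). In replicates 2 and 3 alone 3 members passed, all lower at 24 weeks, against 4.66% of all genes (2.14% lower). Slc1a4 fell by 1.72 (adjusted p = 0.00382), from 9.23 and 9.59 to 7.99 and 7.40, while replicate 1 was at 7.96 and 7.77. The neutral amino acid carrier Slc6a15 fell by 1.28 (0.0271) and Slc7a13 by 1.14 (0.0268).

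Slc36a2, a proton-coupled carrier of glycine and proline that is also known from brown fat cells, moved with 1 library. It was at 4.50, 4.02 and 2.67 in the controls at 12 weeks, at 8.81, 5.17 and 5.47 in those at 24 weeks, at 5.48, 4.43 and 3.35 in NASH at 12 weeks and at 4.08, 5.12 and 4.76 in NASH at 24 weeks. The value of 8.81, in control replicate 1 at 24 weeks, stands for 330 reads, and the other libraries hold 6 to 40. Since Slc36a2 is in the files only through that library, no test of it is given for comparisons with the 24-week controls. The counts over all 40 genes in those comparisons still take it in. The NASH libraries at 24 weeks lay wholly under the controls, the 1 member to do so, against 2.65% of all genes, and nothing is read from this. The difference was -1.83, and -0.67 without control replicate 1 at 24 weeks. Between the control times it was 2.76, and 1.59 without that library.

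The summed level of the 5 adipocyte markers, all measured, was highest in the same library. It was 5.43 to 9.22 in the controls at 12 weeks, 9.60 to 13.4 in those at 24 weeks, 6.42 to 10.4 in NASH at 12 weeks and 6.05 to 9.28 in NASH at 24 weeks. Of the 5 markers, Adipoq (10.5), Plin1 (9.22), Cidec (9.41) and Cfd (13.0) were also highest in control replicate 1 at 24 weeks. Lep was not, at 4.35 there and at 6.87 in control replicate 2 at 24 weeks. The brown fat gene Ucp1 was highest in control replicate 1 at 24 weeks (11.9, against 2.34 to 5.92 in the other 11 libraries). Ucp1 was looked at after the values of Slc36a2 were seen. The part of fat cells in the level of Slc36a2 was not tested.

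**Figure D5:**
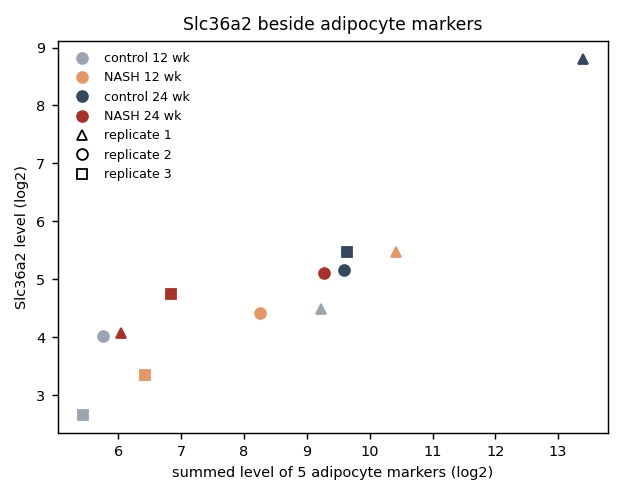
Log2 level of Slc36a2 (y axis) against the log2 sum of 5 adipocyte markers (x axis) in the 12 libraries, coloured by group, with triangles for replicate 1, circles for replicate 2 and squares for replicate 3. Control replicate 1 at 24 weeks stands alone at 13.4 and 8.81, and the other libraries lie between 5.43 and 10.4 on the x axis.

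The other genes of amino acid handling were taken from fixed lists and counted at 12 weeks, where none of the 45 measured passed without the block (10 at an unadjusted p under 0.05, limma), against 0.0517% of all genes. With the block 7 of the 45 passed, against 12.9% of all genes, a share close to the background. With it, 0 of the 9 measured partners and other carriers passed (4 at an unadjusted p under 0.05). Tmem27 (collectrin), which Slc6a19 needs to reach the renal brush border, changed by -0.23, and Slc16a10, a basolateral carrier of aromatic amino acids, by -0.61. Of 9 brush-border peptidases, which free amino acids from filtered peptides, 7 had a change above 0 and 1 passed, Enpep, which fell by 0.37 (adjusted p = 0.0448 with the block). Of 6 mitochondrial amino acid carriers none had a change above 0 and 1 passed: the ornithine carrier Slc25a15 fell by 0.68 (adjusted p = 0.00859 with the block). It was at 12.18, 11.81 and 11.93 in the controls and at 11.56, 11.08 and 11.24 in NASH, with no overlap.

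The ATF4 response is the program that cells run when amino acids are short, and several carriers are among its targets. Of its 14 measured genes, 8 had a change above 0 at 12 weeks and 3 passed with the block, which called 12.9% of all genes. Asns, asparagine synthetase, rose by 1.03 (adjusted p = 0.0399), and Eif4ebp1, a brake on translation, by 0.88 (0.0236). Psat1, of serine synthesis, fell by 0.59 (0.0383). Atf4 itself changed by -0.31 and Ddit3 by 0.68, neither called. Among the regulators of carrier activity, the ubiquitin ligase Nedd4 fell by 0.33 (0.0453 with the block). At 24 weeks none of the 45 genes of these 5 lists passed in either fit (3 at an unadjusted p under 0.05 in each), against 0% of all genes without the block and 0.00861% with it. The median change at 12 weeks was -0.05 for the partners, 0.38 for the peptidases, -0.22 for the mitochondrial carriers, 0.30 for the ATF4 list and -0.39 for the regulators, against -0.08 for all genes.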

How the data were processed

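The deposited values are log2 values, 1 per gene and library, normalized per the file headers. BWA, limma and the mouse build mm10 are named as the authors' tools and genome per the submitters' processing notes; their roles and versions, and the filter on genes, are not given in the sources used here. The values step by whole reads: of those below 60 steps, 83.5% to 91.5% were whole multiples of 1 step per library, within 0.01 steps. The steps, and with them the factor between reads and deposited values, ran from 1.00 to 1.96. The read numbers given in the text come from these steps and cover counting only. Replicates of a group differed beyond sampling noise in every pair (median ratio 4.31 to 34.9), so none were copies.

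The log2 values were used as deposited. limma 3.58.1 (R 4.3.3) fitted 4 group means to all 12 libraries and 11614 genes, with 2-sided moderated tests, a mean-variance trend and Benjamini-Hochberg adjustment over all genes. Genes in the text are those called in any of 6 contrasts, the 5 per direction with the smallest p at each time, those whose replicate 1 stands apart, and a list of main renal carriers; other members are given where a class is counted in full. The transporters and all lists were chosen with earlier results of these data known. Fits were tested on simulated data. A gene on the list of regulators is not reported here. Levels between genes are per kilobase of the transcript length in the files. Promoter windows come from RefSeq (GRCm38.p6), the build named mm10 in the notes. matplotlib 3.10.9, pandas 2.3.3 and numpy 2.4.6 ran under Python 3.11.15.

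Replicate numbers 1 to 3 occur in every group. Deviations from the group means correlated over 0.1 in all 18 same-numbered pairs (0.19 to 0.74), and on that ground the number was fitted as a block. Replicates 2 with 3 also correlated over 0.1 in all 12 pairs (0.19 to 0.64), so these correlations separate replicate 1 and leave the pairing of the other two unresolved. What a number stands for is not in the labels. The alternatives were this block, alone or with quantile normalization, median-of-ratios scaling or a GC and length trend removed (GC known for 97.9% of genes and for 40 of 40 transporters), each of these 2 scalings without the block, a pseudocount of 8, a filter at 100 scaled reads, no trend, only the libraries compared, replicates 2 and 3 alone, and each library left out.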

Additional observations from a re-analysis of the deposited data

Results flagged for a closer look

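The NASH effect on Slc6a9, the glycine carrier GlyT1, differed between the 2 times in replicates 2 and 3 alone (-1.52 for the effect at 24 weeks minus that at 12 weeks, SE 0.25, adjusted p = 0.0289 by limma). At 12 weeks replicates 2 and 3 of the controls were at 8.78 and 8.66, under the NASH values of 9.42 and 9.34. At 24 weeks they were at 9.64 and 10.11, over the NASH values of 8.86 and 9.17. In these 2 libraries a group, NASH was thus the higher at 12 weeks and the lower at 24. In this subset 0.629% of all genes passed for the difference. In replicate 1 NASH was higher at both times, by 1.01 and 0.79. With all 12 libraries the difference was -1.09 and did not pass (adjusted p = 0.296 with the replicate block). Neither effect passed on its own in replicates 2 and 3 (0.66, adjusted p = 0.0633, and -0.86, adjusted p = 0.144).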

How the results depend on the processing

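The number of transporters called was 0 of 40 in every comparison without the replicate block, with all libraries or with 1 left out. The block raised it to 4 at 12 weeks and to 4 for the average of both times, and left it at 0 for the 24-week effect, the difference of the effects and both age comparisons. Beside the block, quantile normalization gave 4 and 4, median-of-ratios scaling 3 and 3 (Slc7a8 was lost at 12 weeks), and removing a GC and length trend 1 and 2. Leaving out 1 library, with or without the block, gave 0 to 4 at 12 weeks, 0 to 4 for the average, 0 to 3 for the control age comparison (3 without control replicate 1 at 24 weeks) and 0 to 2 for the NASH age comparison (2 without NASH replicate 1 at 24 weeks), and 0 for the others. Replicates 2 and 3 alone gave 1 at 12 weeks, 0 at 24 weeks, 1 for the difference, 0 for the average, 4 for the control ages and 3 for the NASH ages. Of 180 changes of the 30 named genes, the block moved 8 past the threshold and changed no other call; 6 changed sign under quantile normalization, 13 under median-of-ratios scaling and 2 under a pseudocount of 8, none of them called. No called change reversed. Depth limits Slc7a13, Slc7a12, Slc36a2, Slc1a3 and Slc6a17, each under 20 reads in at least 1 library.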
